A study of Mus musculus with 8 samples.

Results

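The lysyl oxidases of the mouse, Lox, Loxl1, Loxl2, Loxl3 and Loxl4, are the enzymes that start the covalent cross-linking of collagen and elastin. They were taken from the deposited count table by gene symbol, and all 5 were found among its 24982 genes. RNA was sequenced from cultured tail tendon fibroblasts of C57Bl/6 mice. In 4 libraries the cells kept the gene of the tendon transcription factor scleraxis (genotype Scx+, replicates 2, 3, 5 and 6), and in 4 libraries it had been deleted (genotype Scx-, replicates 2, 3, 4 and 5). All 8 libraries, controls included, carry the label "4ht treatment: Yes", and the means of deletion is not given in the sources used here. The design sets mRNA levels of cells that contain scleraxis against those of cells that lack it.

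Lysyl oxidases are secreted, copper-dependent amine oxidases. They oxidise lysines and hydroxylysines in collagens and elastin to aldehydes, which then react with neighbouring chains to form the cross-links that give tendon its tensile strength. Lox and Loxl1 form a subfamily whose propeptides are removed outside the cell, Lox by the proteinase Bmp1. Loxl2, Loxl3 and Loxl4 form a second subfamily with scavenger receptor domains before the catalytic domain. Loxl1 is known for its role in elastic fibres, and Loxl2 for its action on the type IV collagen of basement membranes.

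The coding stretch for the copper-binding site is shown because it is the family's signature. A pattern of codons for tryptophan, histidine, cysteine and tyrosine, with 3 codons left free, was searched in frame in 21951 coding genes of GENCODE release M21 on GRCm38. It was found in 5 genes, which were the 5 lysyl oxidases. The stretch is given for 4 of them on the coding strand, with the histidine codons in capitals.
Loxl1: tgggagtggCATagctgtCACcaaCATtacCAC
Loxl2: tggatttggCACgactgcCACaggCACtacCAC
Loxl3: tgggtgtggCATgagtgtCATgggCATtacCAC
Loxl4: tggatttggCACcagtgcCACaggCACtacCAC
In these 33 bases 20 positions were identical in all 4 genes. Loxl2 and Loxl4 differed at 2 bases, the fewest of any pair shown, and Loxl1 and Loxl4 at 12, the most. The stretch crosses an exon junction in each gene. It lies at chr9:58294359-58294381 and chr9:58293720-58293729 in exons 3 and 4 of Loxl1 (minus strand), and at chr14:69682316-69682338 and chr14:69689028-69689037 in exons 10 and 11 of Loxl2 (plus strand). In Loxl3 (plus strand) it lies at chr6:83049995-83050017 and chr6:83050116-83050125 in exons 10 and 11, and in Loxl4 (minus strand) at chr19:42599877-42599899 and chr19:42598807-42598816 in exons 11 and 12.

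The gene models bear on how cleanly the members were counted. The longest run of bases shared by transcripts of any 2 lysyl oxidases was 32 bases, between Lox and Loxl1, and the other 9 pairs shared 11 to 28 bases. Lox (ENSMUSG00000024529.14, chromosome 18, 52516067 to 52529867) shares 30 exonic bases with an antisense gene. Loxl1 (ENSMUSG00000032334.10, chromosome 9, 58287738 to 58313186) and Loxl4 (ENSMUSG00000025185.14, chromosome 19, 42593982 to 42612813) overlap no other gene. Loxl2 (ENSMUSG00000034205.16, chromosome 14, 69609068 to 69695834) shares 308 exonic bases with other genes, an antisense gene among those it overlaps. Loxl3 (ENSMUSG00000000693.10, chromosome 6, 83034173 to 83052562) shares 535 exonic bases with other genes and overlaps Htra2, a mitochondrial protease gene on the opposite strand. Whether the counting used strand is not given in the sources used here. Htra2 was looked up for this overlap alone and did not pass the test, with a log2 difference of 0.08 ± 0.05 (SE). No values are given for the genes that overlap Lox or Loxl2, so the part of those overlaps in their counts was not tested.

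The libraries held 17343228 to 25180790 gene counts. Scx checked the labels, with 132 to 252 counts in the Scx-positive and 1 to 3 counts in the Scx-deleted libraries. Levels are given as CPM, counts scaled to the size of the library. The second principal component of log2 CPM, with 12.9% of the variance, set replicate 5 of the Scx-positive group at a distance from the rest of its group. Of 10 tenocyte markers 8 fell, with summed levels of 8316 to 10460 CPM in Scx-positive and 6319 to 6982 CPM in Scx-deleted libraries. Among those that fell is Scx itself, the deleted gene, whose fall was set by the design. Col1a1, Col1a2 and Fmod are counted again in lists below, and Col1a1 and Col1a2 make up most of the sum. The markers Mkx and Egr1 did not pass the test, with log2 differences of 0.0021 and -0.07. The summed endothelial markers stood at 68.2 to 86.2 and 48.7 to 53.8 CPM, with 1 of 3 tested members lower (Tek) and 1 higher (Kdr), and the summed macrophage and leukocyte markers at 18.4 to 20.7 and 21.6 to 25.3 CPM, with 2 of 3 higher (Csf1r and Cd68). Of the smooth muscle and mural markers 1 of 7 rose (Cspg4) and 2 fell (Rgs5 and Cnn1), with sums of 1679 to 2061 and 1700 to 1894 CPM. Of the cartilage markers 1 of 3 tested rose (Sox9, sums of 18.004 to 21.3 and 20.2 to 23.2 CPM), and of the Schwann and glial markers 1 of 4 fell (S100b, sums of 27.1 to 29.6 and 22.6 to 27.8 CPM). The 1 tested skeletal muscle marker, Acta1, fell (sums of 33.5 to 39.5 and 25.3 to 35.1 CPM), with Myod1, Myf5 and Pax7 at 0 counts in every library, and the 1 tested keratinocyte marker did not pass. The defining genes Pecam1, Tie1 and Emcn, and Ptprc, Adgre1 and Itgam, did not pass the filter on low counts. Over all genes tested 14.5% fell and 14.0% rose. The part of these marker shifts in the results was not tested. Every library of both groups held Xist and at most 2 counts of 4 Y-linked genes.

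Lox and Loxl2 fell in the Scx-deleted cells, and Loxl1, Loxl3 and Loxl4 did not pass the test. The size of the changes was modest. Mean Loxl2 fell by 26.7% and mean Lox fell by 16.0%. Of 13125 genes tested with edgeR's quasi-likelihood test, 14.5% were lower and 14.0% higher at a Benjamini-Hochberg adjusted p under 0.05, 28.5% in all, so 2 lower of 5 is set against that background. The median log2 change was -0.17 over the 5 lysyl oxidases and -0.01 over all genes tested. The median of the 5 is the value of Loxl1, which did not pass and depended on Scx-positive replicate 5. Without that library the middle value of the 5 was that of Loxl4, -0.07, and the median over all genes tested was 0.0053. In bulk RNA, fewer cells of a type and less RNA per cell cannot be told apart. Nothing in the labels says that the replicates came from separate animals or cultures, so each p-value is relative to library-to-library spread that may be technical.

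Lox encodes the founding member of the family, the main cross-linking enzyme of fibrillar collagen. Its level was 3591, 3448, 4051 and 3838 CPM in Scx-positive replicates 2, 3, 5 and 6. It was 3241, 3107, 3064 and 3121 CPM in Scx-deleted replicates 2, 3, 4 and 5. All Scx-deleted libraries lay below all Scx-positive libraries, which was so for 14.3% of the genes tested (29.1% in either direction, with 14.8% all higher). Replicate 5 was the highest Scx-positive library. The group means were 3732 ± 267 and 3133 ± 76.1 CPM (SD, n = 4 each), and the log2 change was -0.25 ± 0.05 (SE, adjusted p = 0.00147). The 95% interval of the change ran from -0.36 to -0.14, or from 77.9% to 90.5% of the Scx-positive level. Without Scx-positive replicate 5 the log2 change was -0.21.

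Loxl2 was the member with the largest change. The Scx-positive libraries stood at 466, 451, 450.1 and 486 CPM (replicates 2, 3, 5 and 6) and the Scx-deleted libraries at 357, 342, 336 and 323 CPM (replicates 2, 3, 4 and 5). The groups did not overlap, and Scx-positive replicate 5 was the lowest of its group here, just under replicate 3. The means were 463 ± 16.8 and 339.7 ± 14.2 CPM (SD, n = 4 each). The log2 change was -0.45 ± 0.04 (SE), with a 95% interval of -0.54 to -0.36 and an adjusted p of 1.51e-06. A larger absolute log2 change was found in 10.4% of the genes tested, and for Lox that share was 24.5%. Among genes called in either direction the median absolute log2 change was 0.31, so Loxl2 lay above it and Lox below.

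**Figure D1:**
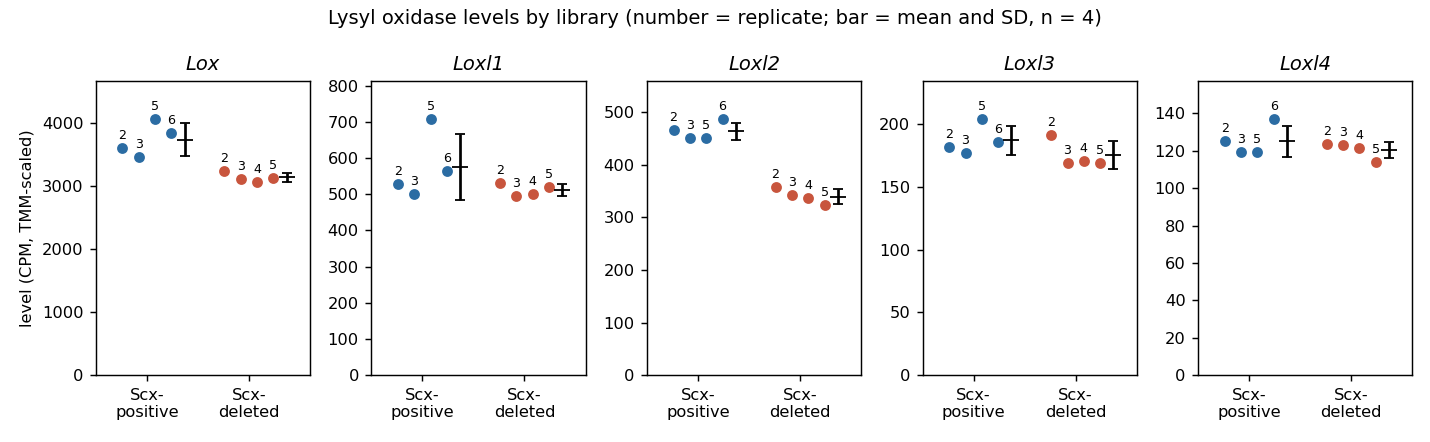
Level of each lysyl oxidase (vertical axis, CPM scaled by TMM, starting at 0) in the 4 Scx-positive and 4 Scx-deleted libraries, with replicate numbers and the mean and SD. The groups are apart for Lox and Loxl2 and overlap for Loxl1, Loxl3 and Loxl4, and Loxl1 in Scx-positive replicate 5 stands at 707 CPM.

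Loxl1, the member tied to elastic fibres, depended on single libraries. It stood at 527, 502, 707 and 563 CPM in Scx-positive replicates 2, 3, 5 and 6, and at 531, 494, 501 and 519 CPM in Scx-deleted replicates 2, 3, 4 and 5. The groups overlapped, with Scx-positive replicate 5 far above all other libraries. The means were 575 ± 91.5 and 511 ± 16.8 CPM (SD, n = 4 each), and the log2 difference was -0.17 ± 0.08 (SE, adjusted p = 0.128), with a 95% interval of -0.34 to 0.00. The difference was -0.05 without Scx-positive replicate 5 (adjusted p = 0.376). It was -0.23 without Scx-positive replicate 3, where it passed the test (adjusted p = 0.0409). Its coefficient of variation was 15.9% in Scx-positive and 3.28% in Scx-deleted libraries, where the medians over the 2496 genes at or above 100 CPM on average were 5.02% and 3.15%. Without Scx-positive replicate 5 it was 5.83% in the remaining 3 Scx-positive libraries, against a median of 3.13%.

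Loxl3 and Loxl4, of the scavenger receptor subfamily, were the least abundant members. Loxl3 stood at 182, 177, 203 and 186 CPM in Scx-positive replicates 2, 3, 5 and 6 and at 191, 169, 171 and 169 CPM in Scx-deleted replicates 2, 3, 4 and 5. The highest Scx-deleted library, replicate 2, lay within the Scx-positive range. The log2 difference of Loxl3 was -0.10 ± 0.05 (SE), with a 95% interval of -0.21 to 0.02 and an adjusted p of 0.192, and it was -0.05 without Scx-positive replicate 5. Loxl4 stood at 125, 119, 119 and 137 CPM in Scx-positive replicates 2, 3, 5 and 6 and at 124, 123, 121 and 114 CPM in Scx-deleted replicates 2, 3, 4 and 5. Its groups overlapped. The log2 difference was -0.05 ± 0.05 (SE), with an interval of -0.16 to 0.05 and an adjusted p of 0.458. Without Scx-positive replicate 6 it was -0.0052, and without Scx-deleted replicate 5 it was -0.025. These intervals hold changes down to 86.5% of the Scx-positive level for Loxl3 and 89.6% for Loxl4, and a p that misses the threshold does not show equal levels.

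**Figure D2:**
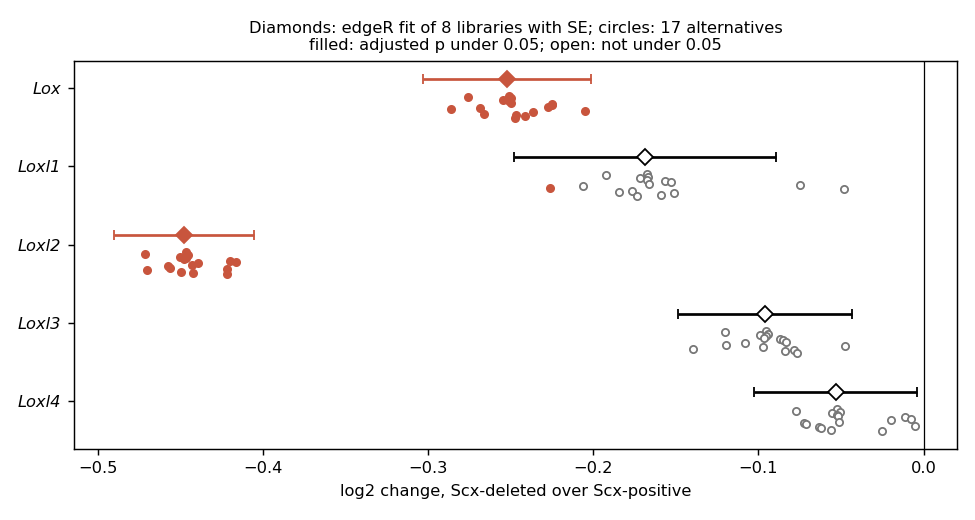
Log2 change of Scx-deleted over Scx-positive cells (horizontal axis) for each lysyl oxidase, with the SE for the edgeR fit of 8 libraries (diamonds) and the value under each of 17 alternative settings (circles, filled where the adjusted p was under 0.05). Lox and Loxl2 stay filled in every setting shown, between -0.29 and -0.21 and between -0.47 and -0.42, and Loxl1 is filled in 1.

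Whether the members changed by different amounts was tested on the ratio of each pair in each library. The ratio of Loxl2 to Loxl4 was 3.73, 3.79, 3.78 and 3.56 in Scx-positive replicates 2, 3, 5 and 6 and 2.89, 2.78, 2.77 and 2.83 in Scx-deleted replicates 2, 3, 4 and 5. These groups did not overlap, and the log2 ratio was lower by a difference of -0.40 in Scx-deleted cells. An exact two-sided permutation test over the 70 splits of 8 libraries cannot go below p = 0.0286, which 5 of the 10 pairs reached. They were Loxl2 with Lox, Loxl3 and Loxl4, and Lox with Loxl3 and Loxl4. After Benjamini-Hochberg adjustment over the 10 pairs these stood at exact permutation p = 0.0571, so 0 pairs passed at 0.05. This comparison was added after the values were seen.

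Levels of different genes were compared per kilobase of the longest transcript. Lox stood at 787 ± 56.2 CPM per kb in Scx-positive and 661 ± 16.05 in Scx-deleted cells (SD, n = 4 each), and ranked 13 of 13024 genes. Loxl1 followed at 174 ± 27.7 and 155 ± 5.09 CPM per kb, rank 316. Loxl2 came next at 87.2 ± 3.16 and 63.9 ± 2.67, rank 918. Loxl3 stood at 45.6 ± 2.83 and 42.7 ± 2.69 CPM per kb (rank 1734) and Loxl4 at 33.4 ± 2.21 and 32.2 ± 1.16 (rank 2323). The order was the same in both groups. Neighbours in it did not overlap in any library, the closest being Loxl3, at 41.2 CPM per kb or more, and Loxl4, at 36.6 or less.

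Lox therefore supplied most of the family's message per length in both groups. Its share of the family total was 69.8% ± 0.433 in Scx-positive and 69.2% ± 0.253 in Scx-deleted cells (SD, n = 4 each). The share of Loxl2 was 7.76% ± 0.612 and 6.69% ± 0.190. Shares are given without a test. The Loxl2 share in Scx-positive replicate 5, 6.86%, was near the Scx-deleted values of 6.41% to 6.82%, since Lox and Loxl1 were high in that library. The family total was 1128 ± 85.6 CPM per kb (1039 to 1235) in Scx-positive and 955 ± 25.2 (936 to 992) in Scx-deleted libraries, or 84.7% of the Scx-positive mean.

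**Figure D3:**
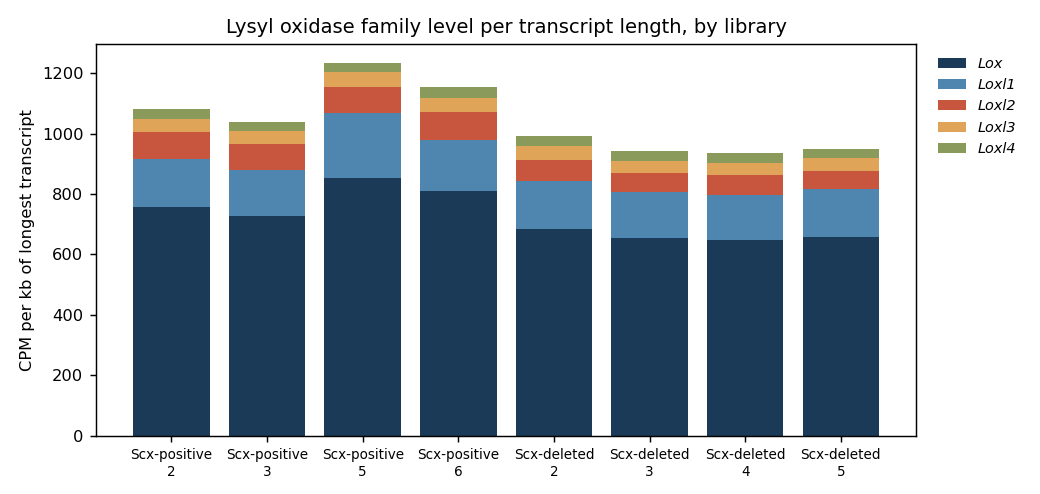
Stacked level of the 5 lysyl oxidases (vertical axis, CPM per kilobase of the longest transcript) in each of the 8 libraries. Lox forms about the same large share of every bar, and the Scx-deleted bars, up to 992, are all below the Scx-positive bars, from 1039.

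The deposited comparison of the authors gave the same directions. In the authors' deposited table the log2 change was -0.54 for Loxl2 (adjusted p = 1.23e-32), -0.30 for Lox (5.81e-11) and -0.17 for Loxl1 (0.00640). In the authors' deposited table Loxl3 stood at -0.12 (adjusted p = 0.0749) and Loxl4 at -0.06 (0.423). Loxl1 thus passed in that table and not in the fit of the deposited counts. The mean signal in the authors' deposited table was 2.34 times the mean count here for Loxl2 and 2.31 times for Lox. For Loxl1 it was 1.46, for Loxl3 1.30 and for Loxl4 1.27 times, where the median over 13110 genes was 1.26.

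Most substrate genes of the family fell. Of 12 fibrillar collagen and elastin genes 9 fell and the other 3 did not pass the test, where 14.5% of all genes tested fell. The median log2 change was -0.50 against -0.01 over all genes tested. Eln, the gene of elastin, stood at 73.7, 78.1, 127 and 60.9 CPM in Scx-positive replicates 2, 3, 5 and 6 and at 13.6, 13.2, 7.37 and 12.8 CPM in Scx-deleted replicates 2, 3, 4 and 5. It had the largest fall of the list, a log2 change of -2.84 ± 0.21 (SE). Col3a1 changed by -1.14 ± 0.07, Col11a1 by -0.85 ± 0.05, and the type I collagen chains Col1a1 and Col1a2 by -0.54 ± 0.07 and -0.40 ± 0.06. The main chains of type IV collagen, a substrate of Loxl2, did not pass the test. The means of Col4a1 were 1153 ± 117 and 1155 ± 81.7 CPM (SD, n = 4 each), and those of Col4a2 were 976 ± 94.5 and 978 ± 54.7. Col4a5 was the 1 of 5 tested type IV genes that fell, by 0.24 on the log2 scale, and the count was 2 when either Scx-positive replicate 5 or Scx-deleted replicate 4 was left out.

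The message of the enzyme relative to that of its substrate was compared within each library. The ratio of Lox to Col1a1 was 0.997, 0.974, 0.872 and 0.984 in Scx-positive replicates 2, 3, 5 and 6. It was 1.09, 1.20, 1.16 and 1.19 in Scx-deleted replicates 2, 3, 4 and 5. Every Scx-deleted value lay above every Scx-positive value, and the ratio was 1.21-fold higher. The ratio of Lox to Eln ranged from 31.8 to 63.1 in Scx-positive and from 236 to 416 in Scx-deleted libraries, 6.02-fold higher. That of Loxl1 to Eln ranged from 5.56 to 9.25 and from 37.5 to 68.0, 6.43-fold higher. The last pair of ratios shares Eln, whose fall enters both. Each of the 3 ratios reached the smallest p that 4 against 4 libraries allow, 0.0286 by an exact two-sided permutation test, and 0.0286 after Benjamini-Hochberg adjustment over the 3. Adjustment leaves 3 equal p-values as they are. Eln fell far more than Lox or Loxl1, so both Eln ratios had to separate, and their p adds nothing to the fall of Eln. Col1a1 also fell more than Lox, with log2 changes of -0.54 and -0.25. A gene without change would have risen relative to Col1a1 as well, so the p of Lox to Col1a1 is not particular to Lox. The ratios compare libraries and say nothing of enzyme or protein amounts. They do not hold for every substrate. The fibrillar chain gene Col5a2, with means of 4811 and 4246 CPM, changed by -0.18 on the log2 scale, less than Lox at -0.25. No ratio of Lox to Col5a2, or of Loxl2 to type IV collagen genes, was tested.

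**Figure D4:**
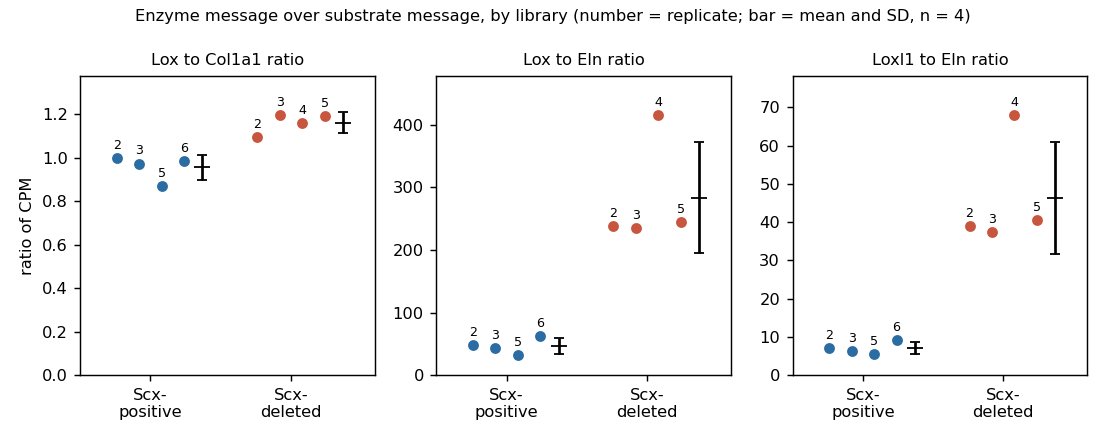
Ratio of enzyme to substrate level (vertical axis, CPM over CPM, starting at 0) in each library for Lox to Col1a1, Lox to Eln and Loxl1 to Eln, with replicate numbers and the mean and SD. All Scx-deleted points lie above all Scx-positive points in the 3 panels, and Scx-deleted replicate 4 is the highest for both Eln ratios, at 416 and 68.0.

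Genes that activate or place lysyl oxidases fell in part. In the list of propeptide proteinases and enhancers 5 of 8 tested genes fell and the other 3 did not pass, where 14.5% of all genes tested fell. Bmp1, the proteinase that matures procollagen and Lox, stood at 245, 236, 291 and 247 CPM in Scx-positive replicates 2, 3, 5 and 6 and at 232, 217, 231 and 222 CPM in Scx-deleted replicates 2, 3, 4 and 5. These groups did not overlap, although the change was small, at -0.18 ± 0.06 (SE, log2) with an adjusted p of 0.0266. The related proteinase Tll1 changed by -0.43, the procollagen N-proteinases Adamts3 by -1.31 and Adamts2 by -0.55, and Pcolce, which speeds Bmp1 on procollagen, by -0.20. The count was 3 without Scx-deleted replicate 3 or without Scx-deleted replicate 5.

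Of 10 scaffold genes, whose proteins bind lysyl oxidases or bring them to fibres, 5 fell and 5 did not pass. The share of all genes tested that fell was 14.5%. Fmod, the gene of fibromodulin, had means of 16.1 ± 2.50 and 7.55 ± 0.641 CPM (SD, n = 4 each) and changed by -1.08 ± 0.11 (SE) on the log2 scale. Fbn1, the gene of fibrillin, changed by -0.32, Ltbp4 by -0.39 and Postn, the gene of periostin, by -0.25. Fibronectin, the scaffold on which Bmp1 acts on Lox, is encoded by Fn1. It stood at 3141 ± 310 and 3250 ± 149 CPM, and the fibulin genes Efemp2 and Fbln5 had log2 differences of -0.05 ± 0.06 and 0.00 ± 0.04 (SE), none of which passed the test. Without Scx-positive replicate 5, 1 gene of the list was higher.

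Lysine and proline are hydroxylated before collagen is secreted. Of 18 tested genes of this step 7 fell, 1 rose and 10 did not pass, where 14.5% of all genes tested fell and 14.0% rose. The lysyl hydroxylases, which decide whether a lysine or a hydroxylysine meets the lysyl oxidase, did not pass the test. Plod1 had a log2 difference of -0.10 ± 0.05 (SE), and Plod2, which hydroxylates the telopeptides, stood at 171 ± 11.7 and 175 ± 7.62 CPM (SD, n = 4 each). Fkbp10, a chaperone that supports Plod2, had means of 509 ± 36.2 and 404 ± 13.9 CPM, a log2 change of -0.33. P3h4 changed by -0.32, P3h1, a prolyl 3-hydroxylase, by -0.22, and P4ha3, a subunit of prolyl 4-hydroxylase, by -0.87. The gene that rose was Tmem38b, an ion channel of the endoplasmic reticulum named after its value was seen, and it did not pass without Scx-deleted replicate 4.

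Copper is the cofactor of lysyl oxidases, and genes of copper handling at large were listed, whether or not they serve these enzymes. Of 11 tested genes 5 rose and 6 did not pass, where 14.0% of all genes tested rose. The metallothionein genes Mt1 and Mt2, whose proteins bind zinc and copper, had the largest rises. Mt2 stood at 73.1, 74.3, 81.1 and 68.9 CPM in Scx-positive replicates 2, 3, 5 and 6 and at 127, 127, 149 and 151 CPM in Scx-deleted replicates 2, 3, 4 and 5, a log2 change of 0.89 ± 0.07 (SE). Mt1 rose by 0.74 ± 0.06. Slc31a1, the copper importer of the plasma membrane, rose by 0.20 ± 0.05 and Cox17, a copper chaperone of mitochondria, by 0.24 ± 0.05. The rise of Atox1 was 0.19 ± 0.05. Whether more or less copper reached the lysyl oxidases was not tested. Atp7a, the pump that loads copper onto secreted enzymes, did not pass the test, with means of 42.6 ± 1.54 and 44.1 ± 1.72 CPM (SD, n = 4 each).

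**Figure D5:**
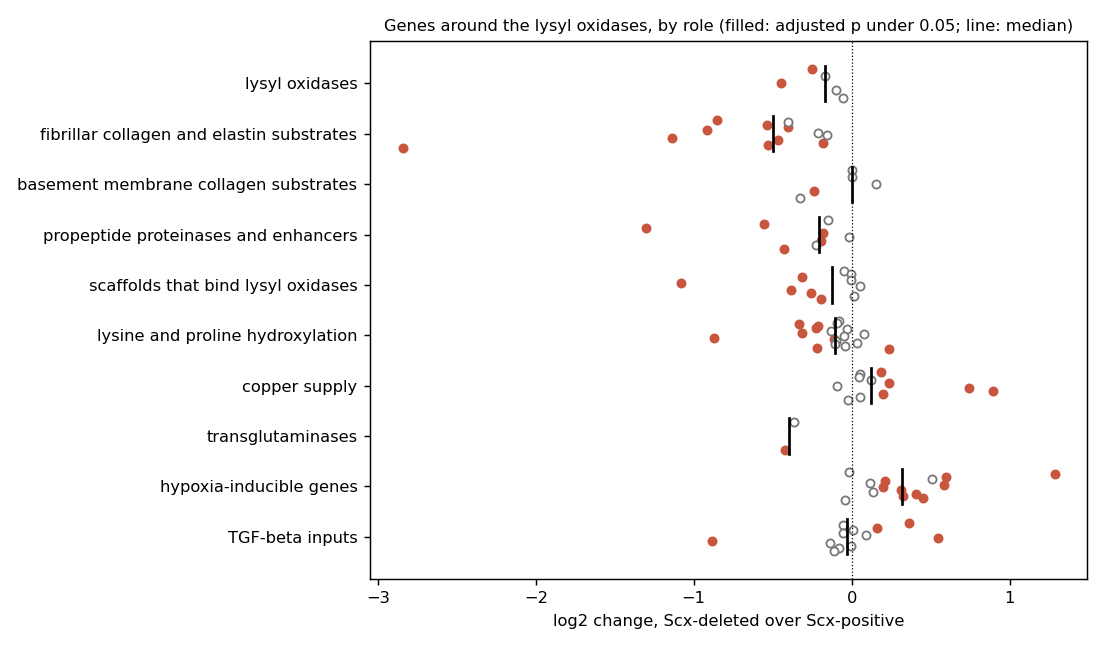
Log2 change of Scx-deleted over Scx-positive cells (horizontal axis) for each tested gene around the lysyl oxidases, grouped by role, filled where the adjusted p was under 0.05, with the median of each group as a line. The substrate group has its median at -0.50 and reaches -2.84 for Eln. The lysyl oxidases have theirs at -0.17, the value of Loxl1, and copper supply and hypoxia-inducible genes lie mostly above 0.

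Inputs known to induce lysyl oxidases were read from lists for hypoxia and for TGF-beta. Of 14 hypoxia-inducible genes 9 rose and 5 did not pass, with a median log2 change of 0.32, where 14.0% of all genes tested rose. Lox and Loxl2, which hypoxia is known to induce, fell. Whether hypoxia or TGF-beta had a part in the changes of the lysyl oxidases was not tested. Ankrd37 rose by 1.29 ± 0.10 (SE), Bnip3 by 0.60 ± 0.07, the glucose transporter gene Slc2a1 by 0.45 ± 0.05 and Pdk1 by 0.40 ± 0.05. Of 12 TGF-beta genes 3 rose, 1 fell and 8 did not pass. Over all genes tested 14.0% rose and 14.5% fell, 28.5% in all, so this count is near the background and says little about the list. The ligand gene Tgfb2 fell from 19.2 ± 0.557 to 10.4 ± 0.657 CPM (SD, n = 4 each), and Tgfb1 rose from 25.7 ± 3.21 to 37.8 ± 2.71 CPM. Smad2, which carries the signal to the nucleus, rose by 0.16 ± 0.05. In the TGF-beta list 2 genes fell without Scx-positive replicate 5 and 3 without Scx-positive replicate 6. Of 8 transglutaminase genes, the other cross-linking family of the matrix, 2 passed the filter on low counts. Of these Tgm2 fell, by a log2 change of -0.42 ± 0.08, where 14.5% of all genes tested fell. F13a1, at 0.891 and 0.704 CPM on average, did not pass the test. With 2 genes tested, this says little about the family.

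The genes whose levels followed each member most closely over the 8 libraries were found by Pearson's r of log2 CPM among 11322 genes, and the highest of so many are high by selection. For Lox they were Tnrc18 (r = 0.995) and Cul7 (r = 0.991), a cullin of ubiquitin ligases, and both fell. For Loxl2 they were the membrane protein gene Emp1 (r = 0.995) and Erfe (r = 0.994), the gene of the iron hormone erythroferrone. Emp1 fell by 0.24 and Erfe by 0.81 on the log2 scale. Loxl1 was followed by Tbc1d9b (r = 0.993) and Zfp771 (r = 0.987), Loxl3 by Klhl26 (r = 0.987) and Sppl2b (r = 0.977), and Loxl4 by Prkd1 (r = 0.971) and Ano6 (r = 0.935), and none of these 6 genes passed the test. Without Scx-positive replicate 5 the r of these 10 pairs ran from 0.890 to 0.998. The points share the group difference and the libraries, so no p is given.

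How the members varied together within the groups depended on 1 library. After the group means were removed, r over the 8 libraries was 0.93 between Lox and Loxl1, 0.84 between Lox and Loxl3 and 0.80 between Loxl1 and Loxl3. It was 0.90 between Loxl2 and Loxl4. For the other 6 pairs r ran from -0.18 (Loxl1 and Loxl4) to 0.34 (Loxl2 and Loxl3). Without Scx-positive replicate 5 r lay between 0.51 and 0.95 for all 10 pairs over 7 libraries, with Lox and Loxl2 at 0.78 and Loxl1 and Loxl4 at 0.63. Scx-positive replicate 5 was the highest Scx-positive library for Lox, Loxl1 and Loxl3. For Loxl2 and Loxl4 it was the lowest, but level with Scx-positive replicate 3. Loxl2 stood at 450.1 CPM in replicate 5 and 451.3 in replicate 3, and Loxl4 at 119.05 and 119.17. These are descriptions over libraries that share depth and scaling.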

How the data were processed

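The 8 RNA libraries were put into the Scx-positive and Scx-deleted groups, 4 each, by their labels. The submitters' processing notes name FastQC, STAR, DESeq2 and the build mm10. Which tool did what, in which version, with which gene models and strand setting, is not given in the sources used here. The authors deposited raw counts for each gene symbol, as whole numbers. Rows for reads in no feature (7.44% to 8.67% per library) and ambiguous reads (0.490% to 0.567%) were left out. The authors' deposited comparison table holds mean normalized signal, log2 fold changes with standard errors, a test statistic (a score) and p-values. It was only set beside the results, and its 2 columns of mean values whose names show no group were not used.

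The fit used edgeR 4.0.16 (R 4.3.3): filterByExpr (minimum count 10, total 15) left 13125 genes, with TMM scaling, a quasi-likelihood fit on group alone, and Benjamini-Hochberg adjustment over all genes tested at 0.05. Each SE is the log2 change over the root of its F statistic. Levels are CPM with TMM factors. Lengths came from GENCODE M21, which placed 98.0% of symbols. Alternatives were upper-quartile and RLE scaling, no filter, 5 CPM in 4 libraries, DESeq2 1.42.0, limma-voom 3.58.1, a replicate block, numbers 2, 3 and 5 only, GC and length offsets, and each library left out. On simulated counts of 13044 genes for this comparison 72.8% of 1.25-fold, 91.2% of 1.5-fold and 93.5% of 2-fold changes were recovered, with 3.98% of calls false. The simulation gave every gene the same biological variation, 5.5%, and held no deviating library such as Scx-positive replicate 5. Its smallest fold, 1.25, was larger than the changes of Lox, Loxl1, Loxl3 and Loxl4. These rates therefore do not give the power for those members.

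The members and lists were chosen with earlier results of these data known. Named genes were the members, Scx, up to 4 called genes with the smallest p per list, 14 fixed genes and the 2 genes most like each member. No pair of libraries within a group agreed within sampling noise. The values of 1 named gene are not reported here.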

Additional observations from a re-analysis of the deposited data

Results flagged for a closer look

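In groups of 4 libraries, the highest or lowest value was set against the others, and 14 of the 124 groups checked had a gap above Dixon's 95% critical value. Chance flags about 1 in 20 independent groups. These groups were not independent, since shares and ratios come from the same CPM values and some genes were chosen for following a member. No excess over chance is therefore read from the count. Scx-positive replicate 5 held 7 of the 14. It was the highest Scx-positive library for Col3a1 at 1914 CPM (others 1495 to 1534), Pcolce at 976 CPM (others 806 to 819), Efemp2 at 711 CPM (others 561 to 575) and Sppl2b at 38.8 CPM (others 33.6 to 33.9). Its share of Loxl1 in the family total was 17.4% (others 14.6% to 14.8%). It was the lowest for Plod2 at 153.9 CPM (others 176 to 179) and Bnip3 at 40.3 CPM (others 47.4 to 47.9).

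Scx-deleted replicate 2 was the highest of its group for Loxl3 at 191 CPM (others 169 to 171), Col1a1 at 2961 CPM (others 2594 to 2637) and Sppl2b at 35.7 CPM (others 30.7 to 31.4). Without it the Loxl3 log2 difference was -0.14 (edgeR adjusted p = 0.0633). Scx-deleted replicate 4 was the lowest for Eln at 7.37 CPM (others 12.8 to 13.6), and its ratios of Lox to Eln, 416 (others 236 to 244), and Loxl1 to Eln, 68.0 (others 37.5 to 40.6), were the highest. Without it the log2 differences of these ratios were 2.39 and 2.48. Scx-deleted replicate 5 had the lowest share of Loxl2 in the family total, 6.41% (others 6.76% to 6.82%).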

How the results depend on the processing

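Lox and Loxl2 fell with an adjusted p under 0.05 in all 17 alternatives, by log2 changes of -0.29 to -0.21 (adjusted p 1.21e-05 to 0.0257) and -0.47 to -0.42 (adjusted p 1.95e-21 to 9.54e-05). Loxl3 and Loxl4 kept their sign and did not pass in any, and neither did Loxl1, save without Scx-positive replicate 3. Leaving out single libraries gave -0.226 to -0.0482 for Loxl1. It gave -0.14 to -0.05 for Loxl3 and -0.07 to -0.0052 for Loxl4. With GC and length offsets Loxl1 stood at -0.07. The 3 enzyme to substrate ratios kept their direction and an exact permutation p of 0.0286, which is also the smallest that 4 against 3 libraries allow by the absolute difference. Over all genes 1427 to 2310 fell when single libraries were left out, against 1902 with all 8, and 1239 with numbers 2, 3 and 5 only, where fewer libraries were fitted.

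List counts are small and moved as follows, and the cause was not tested. With the replicate block 2 type IV collagen genes, 2 transglutaminase genes and 3 TGF-beta genes fell, and 0 hydroxylation genes rose. With numbers 2, 3 and 5 only, 2 type IV collagen, 3 propeptide proteinase, 2 transglutaminase and 2 TGF-beta genes fell, and 0 hydroxylation genes rose. Upper-quartile scaling gave 2 lower type IV collagen and 3 lower TGF-beta genes, and GC and length offsets gave 3 lower TGF-beta and 2 higher hydroxylation genes. Leaving out single libraries gave 1 to 2 lower type IV collagen genes, 3 to 6 lower propeptide proteinase genes, 0 to 1 higher scaffold genes, 0 to 1 higher hydroxylation genes and 1 to 3 lower TGF-beta genes. With the union of exons as length the Lox share of the family total was 70.3% and 69.7%.

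Replicate numbers 2, 3 and 5 occur in both groups. Deviations of same-numbered libraries had r of -0.06, 0.16 and 0.06, and 3 of 6 libraries correlated best with their own number, so the numbers were not taken as pairs. With the replicate block 1561 genes were higher and 1676 lower, Lox stood at -0.22, Loxl1 at -0.15, Loxl2 at -0.42, Loxl3 at -0.09 and Loxl4 at -0.01, and no call on these 5 changed. The correlations and coefficients of variation without Scx-positive replicate 5 were added after seeing the data. Members had 2088 to 100641 counts per library.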
